A study of Mus musculus with 60 samples.

Results

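The Rab GTPases, the small G proteins that direct vesicle traffic, were followed in mouse microglia from late gestation to adulthood and after an immune challenge. Members were taken by gene symbol: Rab followed by a number and, in some, further letters or digits, so that Rab-interacting proteins, Rab effectors and Rab GTPase-activating proteins were left out. The rule found 57 of 22869 gene symbols, each represented by 1 transcript row, and used no measured difference between stages or treatments. Of the 57 members, 49 passed the filter on low counts for the comparison of stages and 40 passed it for the comparison of treatments.

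The data are 60 polyadenylated RNA libraries of microglia, the brain's own macrophages, from C57BL/6N mice. Going by title, untreated microglia gave 3 libraries of females and 4 of males at embryonic day 18 (E18), 4 of each sex at postnatal day 4 (P4) and 10 of each at P14. At P60 saline-treated mice gave 7 libraries of females and 5 of males, and mice given lipopolysaccharide (LPS, a bacterial cell wall component sensed by innate immune receptors) gave 6 and 7. The labels give no LPS dose, route or interval, no isolation method for the cells, and no statement that libraries came from separate animals. The p-values therefore measure the spread between these libraries, which may in part be technical.

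Totals ran from 802016 to 3497454 counts per library, with a median of 1907007.5, and LPS libraries reached at most 1401251. The summed level of 8 microglial markers (Cx3cr1, P2ry12, Tmem119 and others) was 4678 ± 1225 CPM (counts per 1e+06 counts of the library; SD, n = 7) at E18 and 31238 ± 6445 (n = 12) at P60 with saline. None of the 8 had a median of 0 at any stage. The sum of 11 neuronal markers was highest at E18, that of 7 neutrophil markers at P4 and after LPS, and these sums are given beside the results they move with. Ttr, abundant in choroid plexus, made up more than 10% of counts in 3 libraries: male E18 replicates 3 and 4, and female P60 saline replicate 6. For 10 libraries the sex in the title and in the sex characteristic differ, and the title was used. By title, 10, 6, 6 and 6 genes differed between the sexes (adjusted p under 0.05, edgeR) at E18, P4, P14 and P60 with saline, and 15 with LPS. By the characteristic these were 0, 0, 6 and 0, and 0 with LPS, and at P14 the labels do not differ. No date in the sample descriptions was shared by 2 stages or by saline and LPS, so stage or treatment and date cannot be told apart.

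Rab proteins switch between a GDP-bound form, kept soluble by GDP dissociation inhibitors, and a GTP-bound form that sits on a membrane and recruits effectors such as tethers and motors. Guanine nucleotide exchange factors (GEFs) turn them on and GTPase-activating proteins (GAPs) turn them off, and each Rab marks its own step of the secretory or endocytic route. In microglia and other phagocytes, Rabs of the early and late endosome pass the phagosome on to the lysosome, and exocytic Rabs carry receptors and cytokines to the surface.

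The promoter sequences of Rab8b, Rab20 and Rab39 are shown as examples of genes that passed the test both along the stages and after LPS. Rab39 fell after LPS and the other 2 rose. Rab27a and Rab31 also passed in both and are not shown. The sequences are the bases upstream of the annotated start in RefSeq on GRCm38.p6, read 5′ to 3′ on the gene's strand, with capitals marking each GC box (GGGCGG on either strand). The window of Rab8b is chr9:66919706-66919955 and that of Rab39 is chr9:53706233-53706482. The window of Rab20 is chr8:11478711-11478890, which leaves out the 70 bases next to the start because another annotated transcript of the gene begins within the window. All 3 genes lie on the minus strand.
Rab8b: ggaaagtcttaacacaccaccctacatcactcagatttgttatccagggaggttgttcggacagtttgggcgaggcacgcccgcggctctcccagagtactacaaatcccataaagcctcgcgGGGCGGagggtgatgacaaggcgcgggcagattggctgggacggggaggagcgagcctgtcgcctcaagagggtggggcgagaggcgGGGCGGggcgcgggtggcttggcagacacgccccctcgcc
Rab20: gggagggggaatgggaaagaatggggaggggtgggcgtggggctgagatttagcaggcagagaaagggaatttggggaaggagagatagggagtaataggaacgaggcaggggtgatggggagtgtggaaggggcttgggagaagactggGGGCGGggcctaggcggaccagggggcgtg
Rab39: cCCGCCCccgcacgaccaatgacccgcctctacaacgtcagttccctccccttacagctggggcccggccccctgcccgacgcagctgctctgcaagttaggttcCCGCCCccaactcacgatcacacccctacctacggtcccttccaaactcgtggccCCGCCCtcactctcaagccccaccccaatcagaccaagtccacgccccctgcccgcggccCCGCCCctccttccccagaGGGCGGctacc
The Rab8b window held 2 GC boxes, the Rab20 window 1 and the Rab39 window 5. Among 59 promoter windows of the 47 members with an entry, 66.1% held a GC box, against 32.7% of 32851 promoter windows of the same length. GGG, any 2 bases and TTTCC, of the NF-kB type, was in 5.08% of member windows (those of Rab15, Rab28 and Rab9) and in 1.41% of all windows, searched on both strands. CACGTG, the E-box, was in 8.47% and 6.02%, and one of its matches lay in the Rab20 promoter, in the bases not printed. TGANTCA, of the AP-1 type, was in 3.39% and 6.75%, GAGGAAGT, of the PU.1 type, in 3.39% and 2.44%, and GAAA, any 2 bases and GAAA, of the interferon response type, in 1.69% and 2.98%. In the Rab28 window the match of the NF-kB type shares bases with a GC box, and a match is a description of the letters only.

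The members fall into 5 classes of traffic: 16 of the early and recycling endosome, 14 of ER and Golgi, 13 of secretion, 10 of the late endosome and lysosome, and 4 of cilium or other functions. Per kilobase of transcript, averaged over the 5 stage and treatment means, Rab1, which works between the endoplasmic reticulum (ER) and the Golgi, was highest at 147 CPM per kilobase. Rab14, of the endosome to Golgi route, followed at 96.0 CPM per kilobase, Rab5c, of the early endosome, at 91.4, Rab11a, of the recycling endosome, at 82.3, and Rab8b, of exocytic carriers, at 66.8. The highest member of the late endosome and lysosome class was Rab24, linked to autophagy, at 39.1 CPM per kilobase, and that of the remaining class was Rab28, a ciliary Rab, at 23.7. Of the exonic bases of Rab24 66.4% lie opposite another gene, Prelid1, and the strand setting of the counting is not known. The next member of its class was Rab12 at 32.5 CPM per kilobase. Rab1, Rab14, Rab5c, Rab11a and Rab8b made up 30.9% of the summed CPM per kilobase of all members at E18, 37.7% at P4, 41.8% at P14, 38.6% at P60 with saline and 40.6% with LPS. In plain CPM, 11 members averaged at least 100, 31 lay between 10 and 100, 10 between 1 and 10, and 5 (Rab17, Rab19, Rab25, Rab26 and Rab37) were under 1. Those 5 with Rab27b, Rab40b and Rab9b are the 8 members that did not pass the filter for the stages, and none of the 8 exceeded 10.8 CPM in any library.

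**Figure D1:**
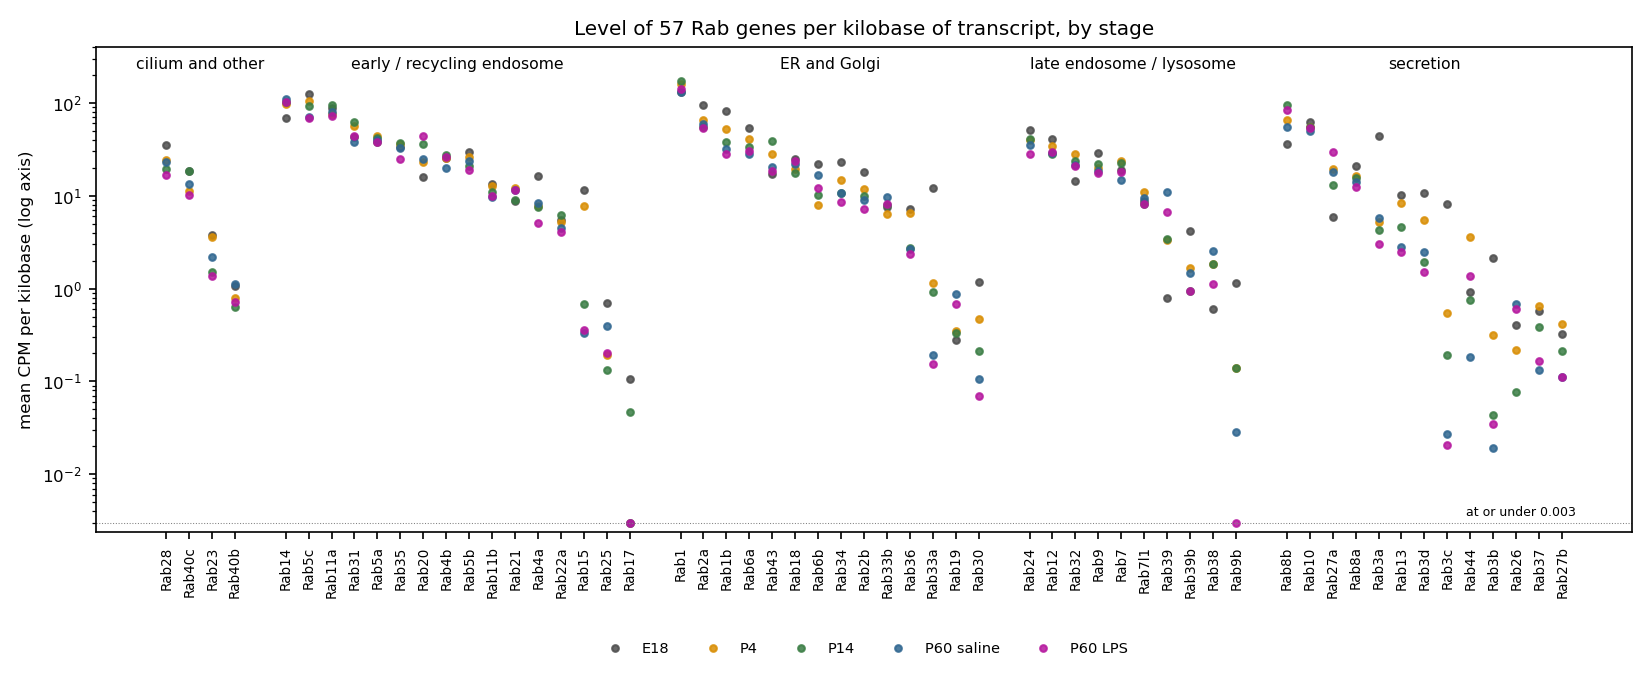
Mean CPM per kilobase of transcript (log axis) of the 57 Rab genes, grouped by class of traffic and ordered by level, with 1 point per stage or treatment. Rab1, at 147 on average, lies far above most members, while Rab3c, Rab15, Rab33a and Rab3b spread widely between E18 (dark grey) and P60 (blue).

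Summed over the 57 members, Rab transcripts took 3843 ± 310 CPM (SD, n = 7) at E18, 3690 ± 178 (n = 8) at P4, 3754 ± 224 (n = 20) at P14, 3209 ± 146 (n = 12) at P60 with saline and 3281 ± 251 (n = 13) with LPS. The sums at the first 3 stages overlap within 1 SD. Single members moved far more than the sum. In the test of any difference between E18, P4, P14 and P60 saline, 41 of 49 tested members passed (83.7%), against 85% of the 13853 genes tested, so their share was close to that of all genes. Each change is given as a log2 fold change with its SE, as fitted by edgeR after TMM scaling, and can differ from the ratio of the CPM means beside it. Adjusted p-values are Benjamini-Hochberg over all genes tested, and rose or fell means an adjusted p under 0.05.

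From E18 to P4 the Rab3 genes, Rab33a, Rab6b, Rab39b and Rab30 fell, and Rab27a, Rab32, Rab39, Rab8b and Rab44 rose. Of 49 tested members 12 rose (24.5%) and 15 fell (30.6%), against 25.5% and 22.7% of all genes tested (55.1% called in all, against 48.3%). The median change of the tested members was -0.16, against 0.03 for all genes. With the size factors of DESeq2 in the same test the split was 9 rising and 19 falling. No call changed direction under the 3 other scalings, and 24 of the 27 calls passed under each, the exceptions being Rab1, Rab20 and Rab7. The library ranges of the 2 stages did not overlap for 9 of 49 members, against 13.7% of all genes. These were Rab3a, Rab3b, Rab3c, Rab33a, Rab2a and Rab4a, which fell, and Rab21, Rab27a and Rab39, which rose.

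In the secretion class, all 4 Rab3 genes, the Rabs of synaptic vesicles and secretory granules, fell. Rab3c ran from 10.2 through a median of 70.9 to 133 CPM at E18 and from 0 through 5.26 to 7.83 CPM at P4, a change of -3.78 ± 0.49 (adjusted p = 3.49e-08). Every E18 library lay above every P4 library, and male E18 replicate 4 was the lowest of its stage. Rab3a, the main Rab of synaptic vesicles, had 42.4, 63.8 and 84.6 CPM as lowest, median and highest value at E18, against 5.06, 7.48 and 10.5 CPM at P4, a change of -2.99 ± 0.34 (adjusted p = 1.98e-09). Again the stages did not overlap. Rab33a, a Golgi Rab enriched in neurons, changed by -3.31 ± 0.52 (mean 14 to 1.31 CPM, adjusted p = 1.15e-06), and Rab6b, the neuronal relative of the Golgi Rab6a, by -1.36 ± 0.24 (mean 111 to 39.5 CPM, adjusted p = 1.38e-05). Rab39b, a neuronal Rab, changed by -1.26 ± 0.43 (adjusted p = 0.013) and Rab30, of the Golgi, by -1.22 ± 0.43 (adjusted p = 0.0167), both from means under 15 CPM at E18.

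The summed level of the 11 neuronal markers went the same way, from 2023 ± 813 CPM (SD, n = 7, range 648 to 2956) at E18 to 125 ± 49.1 CPM (n = 8, range 35.1 to 182) at P4, with Tubb3 at a mean of 719 and 17 CPM. In RNA of a bulk sample, fewer cells of a type and less RNA per cell cannot be told apart. With the log2 sum of the neuronal markers as a covariate, the fitted differences did not pass for Rab3c (1.23, adjusted p = 0.237), Rab3a (-0.94, adjusted p = 0.157) and Rab33a (-2.11, adjusted p = 0.128). Nor did they for Rab39b (0.65, adjusted p = 0.545), Rab30 (-0.13, adjusted p = 0.937) and, among the members that rose, Rab43 (-0.22, adjusted p = 0.659). Rab6b kept its call in that fit, and the counts were then 4 rising and 5 falling. Of all genes 20.1% were called with the covariate, against 48.3% without it, so calls were fewer in general. Rab20, which rose without the covariate, fell with it (-0.83, adjusted p = 0.0460). The E18 and P4 ranges of the neuronal sum do not overlap, so the stage and the neuronal level cannot be told apart in that fit.

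Among the rising members, Rab27a, which docks lysosome-related organelles and secretory vesicles at the plasma membrane, ran from 3.65 through a median of 18.6 to 28.6 CPM at E18. At P4 it ran from 41.3 through 55.5 to 80.7 CPM, above every E18 library, a change of 1.82 ± 0.23 (adjusted p = 1.24e-08). With the neuronal covariate Rab27a kept its call. Rab39, a Rab of phagosome and late endosome traffic, had 0, 1.79 and 4.84 CPM as lowest, median and highest value at E18 and 7.01, 9.47 and 16.6 CPM at P4, a change of 2.12 ± 0.36 (adjusted p = 5.68e-06). The E18 level of Rab39 rests on 38 counts over 7 libraries. Rab32, needed for lysosome-related organelles, changed by 1.03 ± 0.20 (mean 31 to 60.6 CPM, adjusted p = 3.44e-05), and Rab43, of ER to Golgi traffic, by 0.82 ± 0.23 (mean 78.3 to 130 CPM, adjusted p = 0.00364). Rab8b, of exocytic carriers, changed by 1.00 ± 0.20 (mean 169 to 310 CPM, adjusted p = 5.3e-05). Rab39, Rab32 and Rab8b passed in every other alternative tried for this step and did not pass with the neuronal covariate, at 0.74 (adjusted p = 0.286), 0.35 (adjusted p = 0.391) and 0.37 (adjusted p = 0.390). All 8 microglial markers rose in the same step, their sum going from 4678 ± 1225 CPM (SD, n = 7) to 12877 ± 3312 CPM (n = 8). Their part in the rises of Rab members was not tested.

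Male E18 replicate 4, in which Ttr took 24.8% of the counts, had the lowest E18 value of Rab27a, Rab8b, Rab3c and Rab6b, and the highest of Rab20, the Rab of phagosome maturation, at 49.7 CPM. Without the libraries over the Ttr limit 12 members rose and 16 fell. Across the other classes, 7 of the 13 tested ER and Golgi members fell (Rab1b, Rab2a, Rab2b and Rab34 besides Rab30, Rab33a and Rab6b) and 2 rose (Rab1 and Rab43). Of all genes tested 22.7% fell and 25.5% rose in this step, and the classes are small. Of the exonic bases of Rab2b 77.6% lie opposite other genes (Gm43766 and Tox4), and the strand setting of the counting is not known. Of the 14 tested members of the early endosome class, 4 rose (Rab14, Rab20, Rab21 and Rab31), 1 fell (Rab4a) and 9 were not called, beside the same shares of all genes.

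Rab44, an atypical large Rab, rose in the same step but was uneven within P4. In females at P4 its values were 6.62, 4.95, 8.24 and 26.0 CPM in replicates 1 to 4, and in males 38.7, 1.72, 8.83 and 23.1 CPM. The 3 highest libraries, female replicate 4 and male replicates 1 and 4, also had the 3 highest sums of the 7 neutrophil markers, at 8562, 3949 and 3746 CPM, against 276 to 1897 CPM in the other 5. The change was 1.99 ± 0.50 (adjusted p = 0.00108), and 1.53 (adjusted p = 0.0107) without female P4 replicate 4. All 7 neutrophil markers rose from E18 to P4 and all 7 fell from P4 to P14, as Rab44 did, and their part in its change was not tested.

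**Figure D2:**
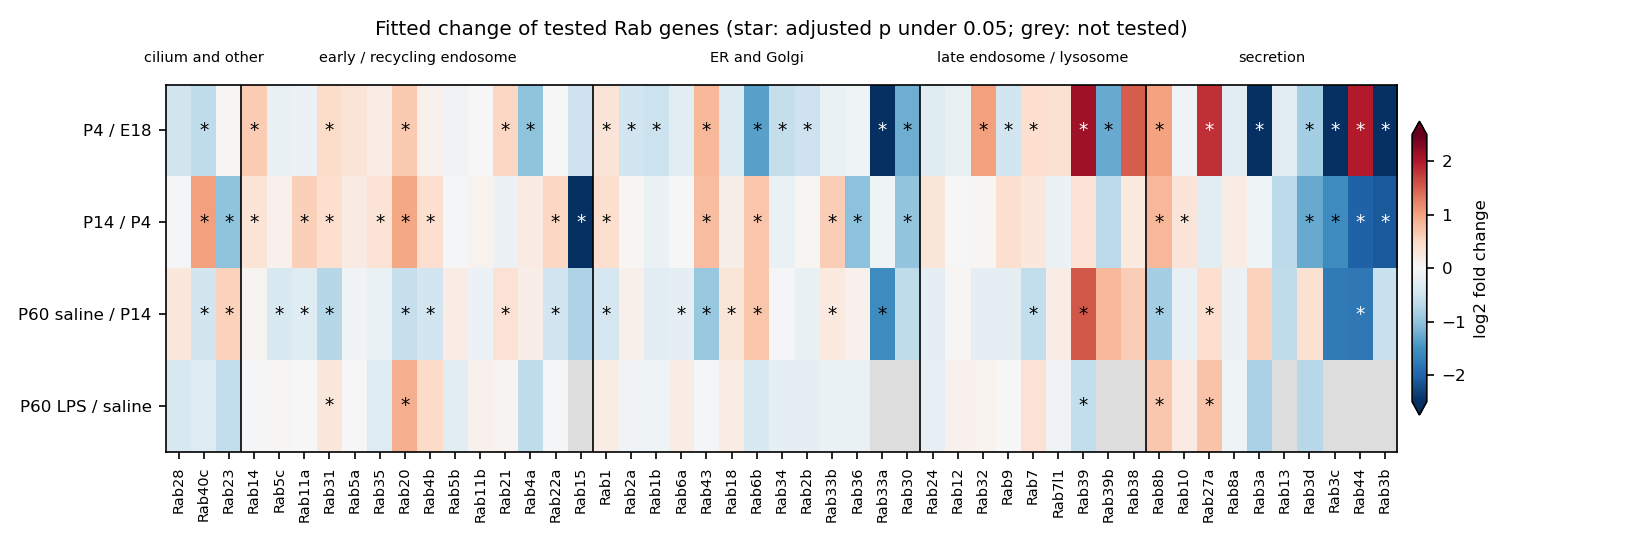
Fitted log2 fold change (colour, clipped at 2.5) of the 49 tested Rab genes in columns, grouped by class, for 4 comparisons in rows; stars mark an adjusted p under 0.05 and grey cells were not tested. The strongest blue cells are Rab3a, Rab3b, Rab3c and Rab33a in the first row and Rab15 in the second, and the last row holds 5 stars.

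From P4 to P14 the largest fall was that of Rab15, an endosomal Rab enriched in neural tissue, while Rab40c, Rab20, Rab8b and Rab43 rose. Of 49 tested members 14 rose (28.6%) and 8 fell (16.3%), against 20.6% and 20.8% of all genes tested. The median change was 0.08, against -0.01 for all genes. With DESeq2 size factors the split was 10 rising and 10 falling, and with the replicate block 13 rising and 4 falling. Replicate numbers shared no date between stages, so the block is not a known pairing. The P14 libraries dated 14 March have numbers found at no other stage, so the block fits their level apart. The members that fell only without the block were Rab30, Rab36, Rab3b and Rab3c. Without the P14 libraries dated 14 March, 9 members rose. No call changed direction under the other scalings, and 18 of 22 calls passed under each, the exceptions being Rab10, Rab14, Rab35 and Rab4b.

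Rab15 ran from 9.48 through a median of 23.9 to 43.0 CPM at P4 and from 0 through 1.66 to 7.49 CPM at P14, a change of -3.21 ± 0.34 (adjusted p = 2.69e-10). It and Rab3d, a granule Rab, were the 2 members whose P4 and P14 ranges did not overlap, against 6.11% of all genes. Rab3d changed by -1.26 ± 0.17 (mean 21.3 to 7.51 CPM, adjusted p = 4.29e-08). Within P4, Rab3d was highest at 32.0, 29.3 and 26.5 CPM in the 3 libraries with the highest neutrophil sums, and 14.6 to 19.5 CPM in the other 5. Rab15 did not follow that order and was 10.0 CPM in the library with the highest neutrophil sum. The sum of 6 astrocyte and radial glia markers went from 1096 ± 236 CPM (n = 8) at P4 to 246 ± 173 CPM (n = 20) at P14, and the neuronal sum from 125 ± 49.1 to 64.4 ± 54.4 CPM. Their part in the fall of Rab15 was not tested. Rab44 changed by -2.01 ± 0.38 (adjusted p = 3.24e-05), Rab23, a ciliary Rab that restrains Hedgehog signalling, by -1.0 ± 0.20 (adjusted p = 8.43e-05) and Rab36 by -1.02 ± 0.29 (adjusted p = 0.00479).

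Among the rising members, Rab40c, which joins a ubiquitin ligase complex, changed by 1.02 ± 0.16 (mean 27.8 to 45.6 CPM, adjusted p = 1.92e-06). Rab20 changed by 0.98 ± 0.22 (mean 31.8 to 50.5 CPM, adjusted p = 3.27e-04) and Rab8b by 0.83 ± 0.16 (mean 310 to 448 CPM, adjusted p = 4.87e-05). Rab43 changed by 0.78 ± 0.19 (mean 130 to 179 CPM, adjusted p = 0.00102), Rab6b by 0.69 ± 0.21 (adjusted p = 0.00640) and Rab33b, which meets the autophagy machinery, by 0.62 ± 0.12 (adjusted p = 3.7e-05). Rab6b did not pass without the P14 libraries dated 14 March (0.46, adjusted p = 0.101). The sum of the 8 microglial markers went from 12877 ± 3312 CPM (SD, n = 8) at P4 to 23532 ± 4722 CPM (n = 20) at P14, and all 8 rose. Their part in the rises of Rab members was not tested. In the early endosome class, 7 of 14 tested members rose (Rab11a, Rab14, Rab20, Rab22a, Rab31, Rab35 and Rab4b) and 1 fell (Rab15). Of all genes tested 20.6% rose and 20.8% fell. The calls of Rab14, Rab35 and Rab4b did not pass under every other scaling. None of the 9 tested members of the late endosome and lysosome class passed in this step by edgeR, against 41.5% of all genes. The reads of Rab43 cannot be told from those of the predicted gene Gm45140, which shares 90.4% of its exonic bases on the same strand, and likewise for Rab4b and Gm21983 over 85.2%.

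From P14 to P60 with saline, Rab39 rose further and several members that had risen before fell. Of 49 tested members 7 rose (14.3%) and 14 fell (28.6%), against 18.5% and 25.7% of all genes tested, with a median of -0.19 against -0.06 for all genes. With DESeq2 size factors the split was 10 rising and 11 falling, and DESeq2 itself called 11 rising and 13 falling. Without the P14 libraries dated 14 March, 9 members fell, and without male E18 replicate 4, which enters only through the shared spread, 11 rose. No call changed direction under the other scalings, and 18 of 21 calls passed under each, the exceptions being Rab11a, Rab33a and Rab6a.

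Rab39 ran from 3.43 through a median of 9.53 to 17.7 CPM at P14 and from 23.7 through 30.6 to 45.1 CPM at P60 with saline, a change of 1.55 ± 0.20 (adjusted p = 4.59e-08). It was the 1 member whose ranges did not overlap in this step, against 2.34% of all genes. The microglial marker sum went from 23532 ± 4722 CPM (SD, n = 20) to 31238 ± 6445 CPM (n = 12), and its part in the rise of Rab39 was not tested. Rab6b changed by 0.69 ± 0.17 (mean 50.9 to 84.6 CPM, adjusted p = 0.00103), Rab27a by 0.43 ± 0.15 (mean 39.2 to 53.3 CPM, adjusted p = 0.0189) and Rab21, of integrin traffic, by 0.36 ± 0.11 (adjusted p = 0.00541). Rab18, of lipid droplets and ER, changed by 0.30 ± 0.12 (adjusted p = 0.0336) and Rab33b by 0.24 ± 0.10 (adjusted p = 0.0453). Rab27a did not pass without the P14 libraries dated 28 February (0.30, adjusted p = 0.162), nor did Rab33b (0.16, adjusted p = 0.238), which also did not pass without male P60 saline replicate 1, 2 or 4. Rab18 did not pass with the replicate block (adjusted p = 0.0553) or without male P60 saline replicate 1 (0.26, adjusted p = 0.0798) or 4 (0.28, adjusted p = 0.0644).

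Rab43 changed by -0.95 ± 0.17 (mean 179 to 93.9 CPM, adjusted p = 1.31e-05) and Rab8b by -0.84 ± 0.14 (mean 448 to 259 CPM, adjusted p = 4.33e-06). Rab31, between Golgi, endosome and phagosome, changed by -0.71 ± 0.10 (mean 214 to 133 CPM, adjusted p = 4.04e-07), and Rab7, which drives fusion with the lysosome, by -0.61 ± 0.11 (mean 49.2 to 32.1 CPM, adjusted p = 2.67e-05). Rab20 changed by -0.59 ± 0.19 (mean 50.5 to 34.7 CPM, adjusted p = 0.0106) and Rab22a, of early endosomes, by -0.48 ± 0.10 (adjusted p = 2.16e-04). Rab20 did not pass with the replicate block (-0.41, adjusted p = 0.0754) or without the P14 libraries dated 14 March (-0.31, adjusted p = 0.193). Rab1, Rab20, Rab31, Rab43 and Rab8b rose in both earlier steps and fell in this one. From E18 to P4 the rises of Rab1 and Rab20 did not pass under every other scaling. With the neuronal covariate Rab20 fell in that step (-0.83, adjusted p = 0.0460), and Rab43 had the opposite sign and did not pass. Neighbouring steps share the libraries of the middle stage, so a high value at P14 enters both. At the other extreme, 10 tested members passed in none of the 3 steps by edgeR: Rab5a and Rab5b of the early endosome, Rab8a, Rab11b, Rab12, Rab13, Rab24, Rab28, Rab38 and Rab7l1. For these a change was not detected, which does not show that their levels were equal. The shares of all genes that passed in no step, or that rose in both earlier steps and then fell, were not counted. Neither list of members can therefore be set against all genes.

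**Figure D3:**
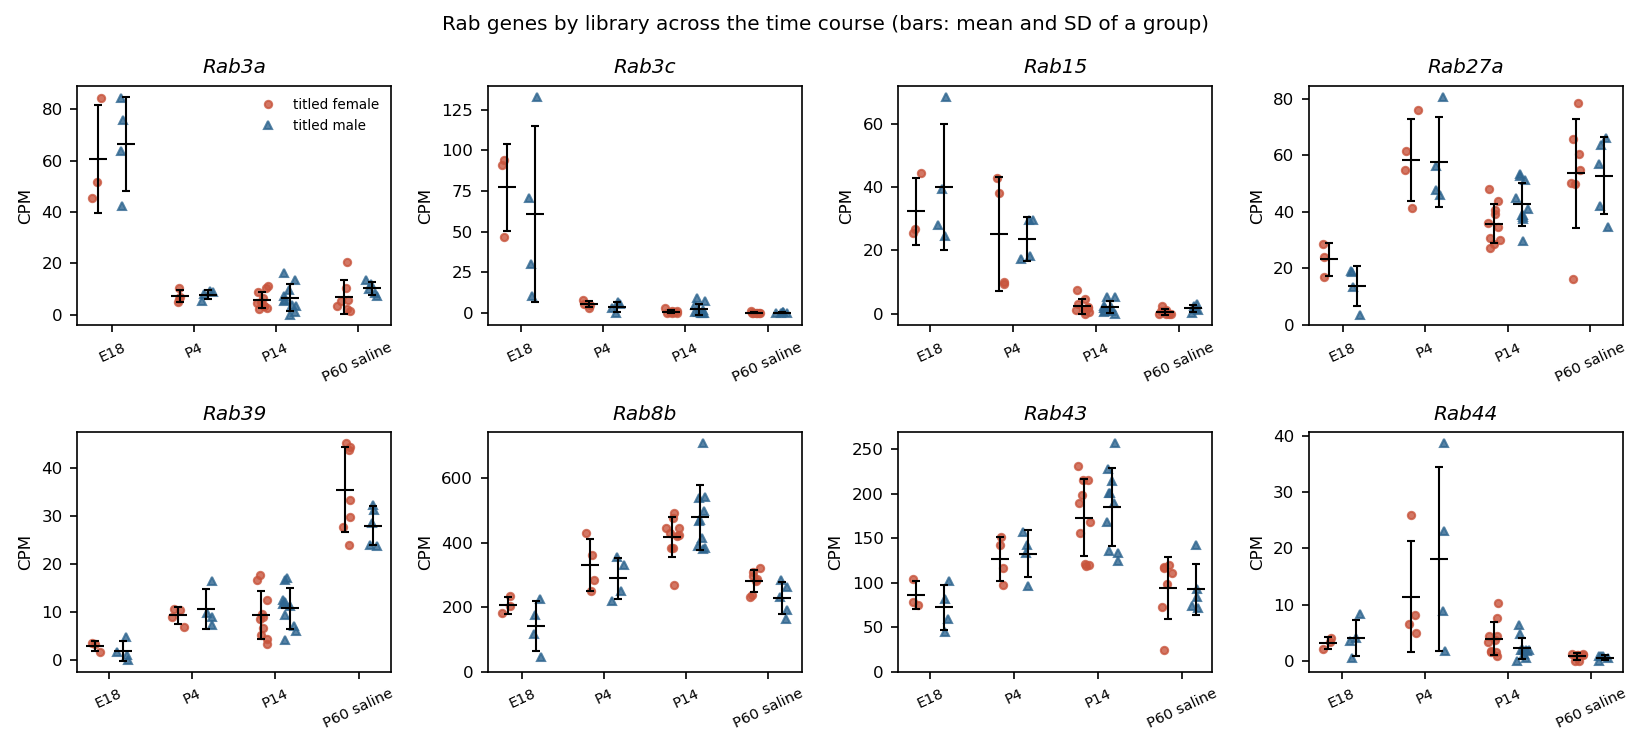
CPM of 8 Rab genes in each untreated or saline library, by stage (x axis) and sex by title (circles female, triangles male), with the mean and SD of each group as black bars. Rab3a and Rab3c are high at E18 alone, Rab15 at E18 and P4, Rab39 reaches 23.7 to 45.1 CPM at P60 above all earlier libraries, Rab8b and Rab43 peak at P14, and Rab44 is scattered at P4.

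Over the whole span from E18 to P60 with saline, 13 of 49 tested members rose (26.5%) and 18 fell (36.7%), against 31.4% and 34.8% of all genes tested (63.3% called in all, against 66.3%). With DESeq2 size factors 11 rose and 24 fell. The ranges did not overlap for 11 members, against 19.3% of all genes. Rab39 rose most, by 4.03 ± 0.35 (mean 2.35 to 32.3 CPM, adjusted p = 6.81e-14), followed by Rab27a at 1.98 ± 0.22 (adjusted p = 7.04e-11), Rab14 at 1.05 ± 0.13 (adjusted p = 6.52e-10), Rab20 at 1.04 ± 0.26, Rab8b at 0.99 ± 0.19 and Rab32 at 0.86 ± 0.19. Rab3c fell most, with a change of -7.13 ± 0.60 (mean 68.1 to 0.228 CPM, adjusted p = 4.07e-14). Its P60 saline level rests on 7 counts over 12 libraries, 8 of which had none, so the size of that fold is imprecise. Rab33a changed by -4.99 ± 0.57, Rab15 by -4.51 ± 0.44, Rab30 by -2.84 ± 0.45, Rab3a by -2.53 ± 0.30 and Rab3d by -1.72 ± 0.19. With the neuronal covariate Rab39, Rab15 and Rab3d kept their calls and the counts were 3 rising and 8 falling. Of all genes 19.3% were called with the covariate, against 66.3% without it. In that fit Rab27a (0.81, adjusted p = 0.210) and Rab14 (0.77, adjusted p = 0.0581) did not pass, and Rab8b (-0.0234), Rab32 (-0.23), Rab3c (1.14) and Rab3a (0.76) had the opposite sign and did not pass. Rab20 passed in the opposite direction (-1.38, adjusted p = 0.0173). Rab3a was 8.32 ± 5.38 CPM at P60 with saline, where the neuronal sum was 20.9 ± 6.58 CPM and 6 of the 11 neuronal markers had a median of 0.

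Relatives with similar sequence followed different courses. Rab8b went through stage means of 169, 310, 448 and 259 CPM from E18 to P60 with saline, while Rab8a stayed between 94.7 and 64.6 CPM and passed in no step. Rab27a went through 17.8, 58.1, 39.2 and 53.3 CPM, and Rab27b had at most 4.72 CPM in any library. Rab6b went through 111, 39.5, 50.9 and 84.6 CPM and Rab6a through 165, 126, 104 and 87.6 CPM. Rab39 went through 2.35, 10.0, 10.1 and 32.3 CPM and Rab39b through 14.2, 5.63, 3.21 and 5.00 CPM. The difference in course between relatives was not tested, and the handling of reads shared by close relatives is not known from the labels.

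After LPS at P60, 4 members rose (Rab20, Rab27a, Rab8b and Rab31), Rab39 fell, and 35 were not called. Of 40 tested members 10% rose, against 10.5% of the 10538 genes tested, and 2.5% fell, against 3.95%. The median change was -0.04, against -0.07 for all genes. No member had ranges that did not overlap between treatments, against 1.28% of all genes. By title, 0 members rose and 1 fell with LPS in females alone, and 4 rose and 1 fell in males alone. At an unadjusted p under 0.05, 3 of the 40 members passed in females and 13 in males. Of the 10538 genes 1526 and 3533 did. Passing in 1 sex alone is not a test of a difference between the sexes, which is given below. All 5 calls kept their direction under the 3 other scalings, and the 4 besides Rab31 passed under each. Upper quartile scaling gave 3 rising and 4 falling, Rab31 losing its call (adjusted p = 0.120) and Rab35, Rab4a and Rab5b joining Rab39. DESeq2 called 3 falling, Rab35, Rab39 and Rab4a, beside the 4 rising.

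Rab20, the Rab of phagosome maturation, ran from 21.3 through a median of 35.6 to 56.2 CPM with saline and from 28.6 through 52.6 to 118 CPM with LPS. Of the 13 LPS libraries 11 lay above the saline median and 6 above the highest saline library, and the change was 0.90 ± 0.20 (adjusted p = 0.00159). Of its exonic bases 25.6% lie opposite another gene, E230013L22Rik, and the strand setting of the counting is not known. Rab27a, of vesicle docking, ran from 16.2 through 55.8 to 78.6 CPM with saline and from 35.0 through 88.6 to 153 CPM with LPS. Again 11 of 13 LPS libraries were above the saline median, and the change was 0.72 ± 0.19 (adjusted p = 0.00783). Rab8b, of exocytic carriers, ran from 165 through 272 to 322 CPM with saline and from 254 through 364 to 613 CPM with LPS, with 9 of 13 LPS libraries above every saline library. Its change was 0.67 ± 0.13 (adjusted p = 3.01e-04), and it passed in all 19 alternatives.

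Rab31, of Golgi, endosome and phagosome traffic, ran from 105 through 136 to 157 CPM with saline and from 111 through 155 to 187 CPM with LPS, a change of 0.29 ± 0.10 (adjusted p = 0.0404). It passed in 8 of 19 alternatives and not with the replicate block (adjusted p = 0.0882). Rab39 ran from 23.7 through 30.6 to 45.1 CPM with saline and from 11.4 through 19.7 to 38.5 CPM with LPS. Of the 13 LPS libraries 12 lay below the saline median and 9 below the lowest saline library, and the change was -0.61 ± 0.18 (adjusted p = 0.0207). It did not pass without the LPS libraries dated 10 April (-0.38, adjusted p = 0.245), without the saline libraries dated 31 March (-0.48, adjusted p = 0.160), or without male P60 saline replicate 2 or 5 (adjusted p = 0.0581 and 0.0560).

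**Figure D4:**
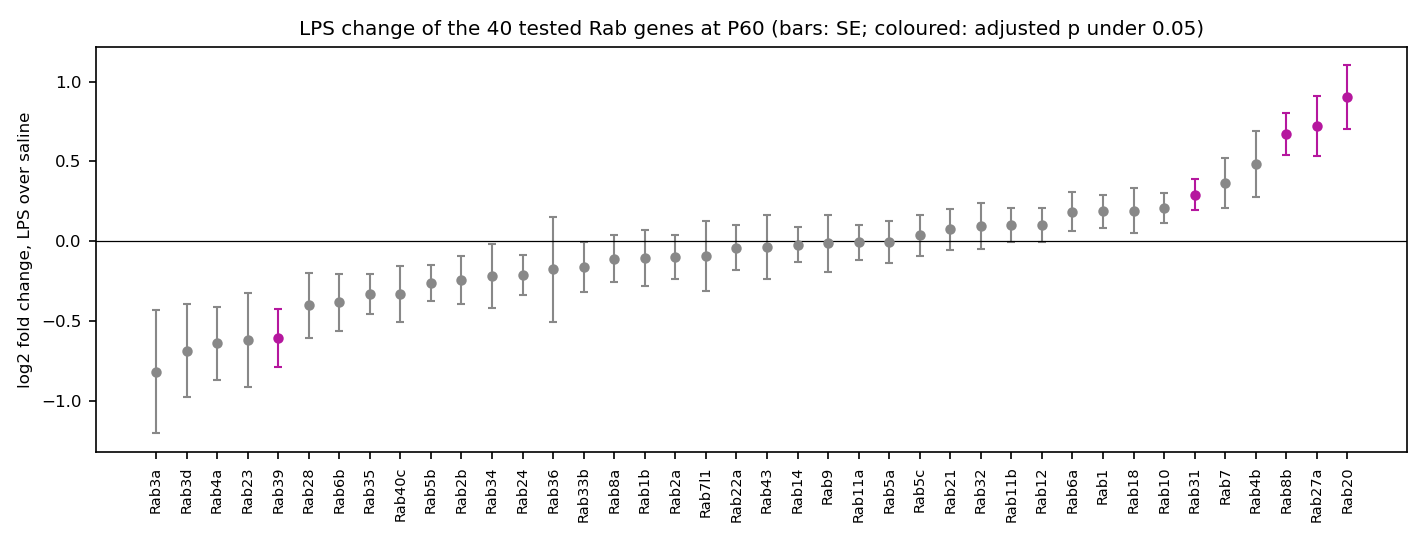
Log2 fold change of LPS over saline at P60 for the 40 tested Rab genes, ordered by size, with bars for the SE; coloured points have an adjusted p under 0.05. Rab31, Rab8b, Rab27a and Rab20 are coloured above 0 and Rab39 below, while Rab3a, Rab3d, Rab4a and Rab23 lie at or below Rab39 with wider bars and are grey.

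The LPS libraries were not alike. Among the 4 dated 9 April, male replicates 3, 4 and 5 had the highest sums of neutrophil markers, 5442, 4607 and 2252 CPM, against 338 to 1168 CPM in the other 10 LPS libraries and 17.5 to 401 CPM with saline. The sum of 4 monocyte markers was also highest in these 3 libraries. They held the 3 highest values of Rab8b, at 613, 602 and 489 CPM. Their Rab20 values, 71.2, 92.6 and 118 CPM, ran in the reverse order of their neutrophil sums. The value of 71.2 CPM was the lowest of the 4 libraries dated 9 April. Rab20 also reached 76.4 CPM among the libraries dated 10 April, where neutrophil sums were 338 to 1007 CPM. Without the 4 libraries dated 9 April Rab8b changed by 0.53 (adjusted p = 0.00539), Rab27a by 0.64 (adjusted p = 0.0386), Rab31 by 0.33 (adjusted p = 0.0319) and Rab39 by -0.74 (adjusted p = 0.00938). Rab20 then did not pass (0.59, adjusted p = 0.0542), and 3 members fell. Without the saline libraries dated 3 April Rab27a did not pass (0.53, adjusted p = 0.0660), 2 members rose and 3 fell. By date, mean Rab20 was 39.2 CPM on 8 April, 90.1 on 9 April and 60.7 on 10 April with LPS, and 45.5, 33.8 and 30.7 CPM on the 3 saline dates. All 5 tested neutrophil markers and 2 of 4 monocyte markers rose with LPS, and their part in the Rab changes beyond these values was not tested.

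**Figure D5:**
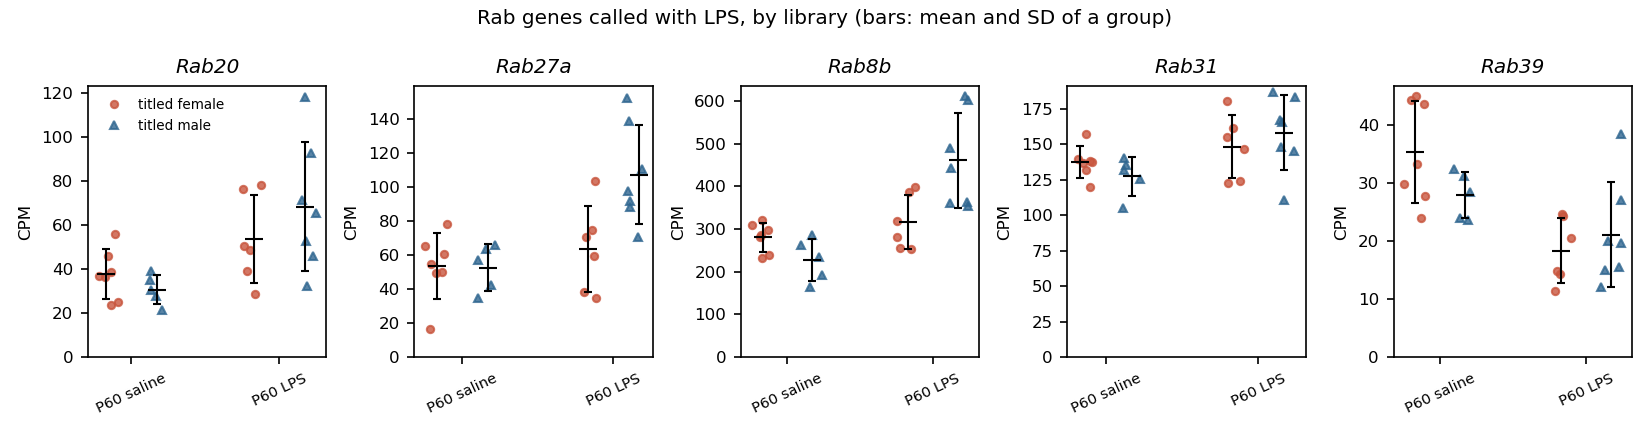
CPM of the 5 Rab genes called with LPS in each P60 library, by treatment (x axis) and sex by title (circles female, triangles male), with the mean and SD of each group as black bars. Saline and LPS overlap for each gene, and the 3 highest Rab8b values, 489 to 613 CPM, are male LPS libraries.

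No member passed the test between the sexes at E18, P4, P14, P60 with saline or P60 with LPS, nor in the tests of sex by stage or sex by LPS, by edgeR. At an unadjusted p under 0.05 there were 7 members at E18, 0 at P4, 0 at P14, 2 at P60 with saline, 5 at P60 with LPS, 2 for sex by stage and 5 for sex by LPS. At that unadjusted threshold 2602, 46, 655 and 1340 of all 13853 genes passed at E18, P4, P14 and P60 with saline. Of the 10538 genes of the LPS fit, 1710 passed it between the sexes with LPS and 2255 for sex by LPS. At an adjusted p under 0.05 the shares of all genes called were 0.0722% at E18, 0.0433% at each of the next 3 stages, 0.142% with LPS, 0% for sex by stage and 0.883% for sex by LPS. DESeq2 called no member in these comparisons but sex by LPS, where it called 2, Rab8b (0.96, adjusted p = 0.0158) and Rab14 (0.64, adjusted p = 0.0495). That is 5% of the 40 members, against 5.6% of all genes called by DESeq2 in the same test. Between the sexes at E18 it called 500 genes in all, 5.09% of those to which it gave an adjusted p. The share was 1.21% at P60 with LPS and at most 0.188% at the other stages. A member without an adjusted p from DESeq2 was counted as not called. In edgeR the LPS effect on Rab8b in males less that in females was 0.95 ± 0.26 (95% interval 0.44 to 1.45, adjusted p = 0.0575), and that on Rab14 was 0.64 ± 0.22 (adjusted p = 0.114). Mean Rab8b was 281 ± 34.1 CPM (SD, n = 7) with saline and 316 ± 64.0 (n = 6) with LPS in females, and 228 ± 49.6 (n = 5) and 461 ± 112 (n = 7) in males. The 3 P60 libraries with the highest neutrophil sums are all male. At E18, leaving out male replicate 2 gave 7 calls (Rab11a, Rab20, Rab24, Rab28, Rab4b, Rab5c and Rab8a), and leaving out male replicate 1 gave 3, all higher in males. These are 14.3% and 6.12% of the 49 members, against 18% and 5.95% of all genes in the same fits. Male E18 replicate 4, with its high Ttr share, is in both fits.

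The genes named here with a change passed the test in edgeR, with adjusted p-values up to 0.0279 (Rabif with LPS). Of 35 tested GEFs, the activators of Rabs, 19 rose (54.3%) and 5 fell (14.3%) from E18 to P4, against 25.5% and 22.7% of all genes, with a median of 0.52 against 0.03 for all genes. Rin2, a GEF of Rab5, changed by 1.28 ± 0.18 (mean 121 to 275 CPM) and by 1.56 ± 0.15 from P4 to P14 (mean 275 to 662 CPM), and Dennd1c, a DENN-domain GEF, by 1.5 ± 0.23 from E18 to P4. From P4 to P14 15 GEFs rose (42.9%) and 3 fell (8.57%), against 20.6% and 20.8% of all genes, with a median of 0.24 against -0.01, and with Hps4, part of the GEF of Rab32 and Rab38, at 1.59 ± 0.22. From P14 to P60 4 rose (11.4%) and 9 fell (25.7%), against 18.5% and 25.7% of all genes (median -0.12 against -0.06), Rabgef1, a GEF of Rab5, changing by -1.17 ± 0.16 (mean 123 to 55.9 CPM). With LPS 4 of 33 rose (12.1%) and 5 fell (15.2%), against 10.5% and 3.95% of all genes (median 0.05 against -0.07), the rising ones led by Sh3bp5, a GEF of Rab11, at 0.95 ± 0.13 and Dennd4a, a GEF of Rab10, at 1.11 ± 0.15 (mean 331 to 679 CPM).

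Of 38 tested GAPs 12 rose and 7 fell from E18 to P4, 12 rose and 1 fell from P4 to P14, and 5 rose and 9 fell from P14 to P60. The rising shares of GAPs were 31.6%, 31.6% and 13.2%, against 25.5%, 20.6% and 18.5% of all genes, and the falling shares 18.4%, 2.63% and 23.7%, against 22.7%, 20.8% and 25.7%. Their medians were 0.29, 0.12 and -0.10 in these steps, and -0.06 with LPS. Tbc1d10a, a GAP of Rab27a and Rab35, changed by 2.04 ± 0.20 (mean 24.7 to 82.3 CPM) from P4 to P14 and by -1.32 ± 0.17 (to 33.1 CPM) from P14 to P60. With LPS 4 of 33 GAPs rose (12.1%) and 0 fell by edgeR, against 10.5% and 3.95% of all genes. Tbc1d14, which binds Rab11 and affects autophagy, changed by 0.94 ± 0.10 (mean 216 to 404 CPM). Of 44 tested effectors 20 rose and 8 fell from E18 to P4, 10 and 6 from P4 to P14, and 8 and 7 from P14 to P60, with medians of 0.38, 0.09 and 0.03, and of -0.09 with LPS. The rising shares of effectors were 45.5%, 22.7% and 18.2%, against 25.5%, 20.6% and 18.5% of all genes, and the falling shares 18.2%, 13.6% and 15.9%, against 22.7%, 20.8% and 25.7%. Acap2, an effector of Rab35, changed by 1.63 ± 0.21 from E18 to P4, while Rufy3, an effector studied in axons, changed by -2.12 ± 0.28 (mean 139 to 28.8 CPM). Mlph, the melanophilin that links Rab27a to myosin, rose at each step: by 2.06 ± 0.69 from E18 to P4, from a mean of 0.753 CPM, by 3.90 ± 0.37 from P4 to P14 (mean 2.64 to 31.9 CPM), by 1.78 ± 0.22 from P14 to P60 (to 113 CPM) and by 0.98 ± 0.22 with LPS (113 to 211 CPM). Rab11fip5, an effector of Rab11, changed by -1.02 ± 0.19 with LPS (mean 89.0 to 41.3 CPM), where 2 of 38 effectors rose (5.26%) and 1 fell (2.63%), against 10.5% and 3.95% of all genes.

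Of the 8 genes that prenylate and recycle Rabs, 3 rose (37.5%) and 2 fell (25%) from E18 to P4, against 25.5% and 22.7% of all genes, with a median of -0.20. Gdi2, a GDP dissociation inhibitor, changed by 0.54 ± 0.13 (mean 437 to 601 CPM, adjusted p = 4.55e-04). With LPS 0 of the 8 rose and 1 fell (12.5%) by edgeR, against 10.5% and 3.95% of all genes (median -0.13). The gene that fell was Rabif, a chaperone of exocytic Rabs, at -0.51 ± 0.16. The last list held 9 genes of HOPS and CORVET, the tethers that Rab7 and Rab5 recruit, and of related tethers. Of these 9 genes 3 rose and 0 fell from E18 to P4, and 5 rose and 0 fell from P4 to P14. From P14 to P60 2 rose and 3 fell, and the medians in these steps were 0.21, 0.33 and -0.17. The rising shares were 33.3%, 55.6% and 22.2% of these few genes, against 25.5%, 20.6% and 18.5% of all genes. The falling shares were 0%, 0% and 33.3%, against 22.7%, 20.8% and 25.7%. Vps18, a core subunit, changed by 1.37 ± 0.24 from P4 to P14 (mean 57.4 to 120 CPM) and by -0.97 ± 0.20 from P14 to P60 (to 60.7 CPM). With LPS 0 of the 9 genes passed in either direction by edgeR (median -0.11), against 14.4% of all genes.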

How the data were processed

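RNA-seq counts of mouse microglia were analysed in 60 libraries. The authors deposited whole-number counts per transcript. Per the submitters' processing notes CASAVA 1.8.2 and edgeR were used and the genome was mm9; the sources used here do not give the aligner, the counting program or its strand setting. Of 28644 rows, the row marked best was kept for 21988 of 22869 symbols and the row with most counts for 881. CPM are counts over the library's total across all symbols, times 1e+06, and are not adjusted by TMM. Lengths, for CPM per kilobase, came from GENCODE vM21 transcripts of the same accession, and overlaps and promoters from GRCm38 annotation, which is not the build of the counts. Of the 57 members 55 matched RefSeq by accession and 47 had a promoter entry.

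The 47 libraries of E18, P4, P14 and P60 saline were fitted together in 8 groups of stage and sex (13853 genes after the filter of edgeR on low counts), and the 25 P60 libraries in 4 groups (10538 genes). Tests were two-sided quasi-likelihood F tests with TMM scaling and robust estimation in edgeR 4.0.16, with sexes weighted equally, at a Benjamini-Hochberg adjusted p of 0.05. Members, classes and lists were chosen with earlier results of these data known. Named members are the 6 largest rises and 6 largest falls of each comparison with a mean of at least 10 CPM, the highest member of each class per kilobase and, for each list, up to 2 genes of smallest p per direction. One gene of a list is not reported here. Rab3b, Rab4a and other members given outside this rule, and the relatives compared by name were chosen after their values were seen. On simulated counts for P4 over E18 (13248 genes) the fit recovered 57% of changes of 1 on the log2 scale and 2% of changes of 0.5, and for LPS (10341 genes) 88% and 15%. There 100 genes changed by each size and all genes had the same spread. In the data 48.3% of all genes were called for P4 over E18, so these rates do not measure the power of the tests here.

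Replicate numbers came from the titles. At P4 the male and female library of a number had the same date in all 4 cases, and their deviations from the group means correlated by 0.348 to 0.429, each the other's best match. At P14 dates matched in all 10 cases, with correlations of -0.172 to 0.43. Between stages and treatments numbers shared no date, so across these a block of replicate number joins libraries of different dates and is not a known pairing. Replicates were compared for copies, and in all 178 pairs the counts differed by more than sampling noise (lowest chi-square per gene 1.96). Alternatives were DESeq2 1.42.0, other scalings, no filter, other transcript rows, sex from the characteristic, blocks of replicate number or date, a neuronal covariate, and libraries or dates left out. Single libraries were left out at E18, P4 and, for males, P60 with saline, and in no other group. Figures were drawn with matplotlib 3.10.9.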

Additional observations from a re-analysis of the deposited data

Results flagged for a closer look

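Within groups of 4 to 10 libraries, 20 of 223 pairs of a named member and a group held a library far from the others by Dixon's criterion, and chance marks about 1 pair in 20. The values are in CPM, and none was left out.

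Female P60 saline replicate 6, with 12% of its counts from Ttr and a sex characteristic that differs from its title, was set apart for 3 members: Rab18 at 236 (others 111 to 151), Rab6b at 21.2 (others 87.7 to 130) and Rab40c at 19.9 (others 29.4 to 34.3). In the same group Rab33b was 45.5 in replicate 5 (others 30.6 to 35.2), Rab15 was 2.52 in replicate 1 (others 0 to 1.03), and in replicate 3 Rab3c was 1.16 (others 0 to 0.315) and Rab33a 0.775 (others 0). Rab22a was 36.9 in male P60 saline replicate 1 (others 27.2 to 29.5).

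At P14, female replicate 5 was low for Rab8b at 270 (others 383 to 491) and for Rab31 at 138 (others 186 to 235); its Ttr share was 7.75%, the highest of its stage. Rab8b was 708 in male P14 replicate 1 (others 380 to 541). Rab18 was 169 in female P14 replicate 6 (others 89.6 to 128), Rab39b 8.82 in replicate 7 (others 1.01 to 3.58) and Rab3c 3.08 in replicate 3 (others 0 to 1.14).

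Rab20 was 49.7 in male E18 replicate 4 (others 15.3 to 20.3), the library with the highest Ttr share. At P4, Rab44 was 26 in female replicate 4 (others 4.95 to 8.24), the library with the highest neutrophil sum, and Rab21 was 75.8 in male replicate 3 (others 50.6 to 53). After LPS, Rab14 was 400 in female replicate 1 (others 207 to 265), Rab33a was 2.33 in male replicate 3 (others 0) and Rab3c 2.25 in male replicate 7 (others 0).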

How the results depend on the processing

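The 52 named changes had 1528 values under the alternatives, some from fits without a library of a stage outside the comparison. Of these values 1481 kept direction and side of the threshold, 39 lost the call and 8 changed sign. All 8 came from the neuronal covariate, and of these Rab20 passed in the opposite direction (adjusted p = 0.0173). From E18 to P4 these were Rab43 (-0.22), Rab3c (1.23) and Rab39b (0.65), and from E18 to P60 Rab20 (-1.38), Rab8b (-0.0234), Rab32 (-0.23), Rab3c (1.14) and Rab3a (0.76). With that covariate 4 members rose and 5 fell from E18 to P4, and 3 rose and 8 fell from E18 to P60. The shares of all genes called were then 20.1% and 19.3%, against 48.3% and 66.3% without it. With DESeq2 size factors the median change of all genes was -0.10 for P4 over E18 (0.03 as reported), -0.12 for P14 over P4 (-0.01) and -0.26 for P60 saline over E18 (-0.08), so changes read relative to the other genes shift by these amounts. DESeq2 called 11 rising from P14 to P60. Without the P14 libraries of 14 March 9 rose from P4 to P14 and 9 fell from P14 to P60. With the replicate block 4 fell from P4 to P14 in place of 8, and no other count moved by over 1.5 times.

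With LPS the falling count of 1 became 4 with upper quartile scaling, 3 with DESeq2, 2 with sex from the characteristic, 3 without the LPS libraries of 9 April, 0 without those of 10 April and 3 without the saline libraries of 3 April, when 2 rose. It ran from 0 to 1 when single male saline libraries were left out, and no LPS or female saline library was left out singly. For sex by LPS DESeq2 called 2, and 0 to 1 were called with single male saline libraries left out. At E18 the sex count ran from 0 to 7, and the count rising from P14 to P60 from 5 to 11. No P14 library was left out singly. In simulated counts for P4 over E18 and for LPS, 2% and 15% of changes of 0.5 on the log2 scale were recovered. The simulation changed few genes and gave all genes the same spread, unlike the data, so these rates need not hold here. A member not called may still differ.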
